A study of Danio rerio with 5 samples.

Results

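The presomitic and tail mesoderm regulators described here are 8 zebrafish genes, identified in the tables by Ensembl gene identifiers. They were wnt8a (ENSDARG00000052910), cdx4 (ENSDARG00000036292), msgn1 (ENSDARG00000070546), her1 (ENSDARG00000014722), her7 (ENSDARG00000017917), mespaa (ENSDARG00000017078), mespab (ENSDARG00000068761) and myf5 (ENSDARG00000007277). The first was taken by its identifier and the others by their gene name, without regard to case. All 8 were among the 26158 genes of the tables. All 8 also passed the filter on low values, a mean of at least 1 count per 1000000 counts (CPM, scaled between libraries with TMM factors) over the 5 libraries, which left 14097 measured genes.

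Presomitic mesoderm is the unsegmented tissue beside the notochord and in the tail bud that is later cut into somites. Its precursors lie at the margin of the gastrula, where Wnt ligands, T-box factors and Cdx factors give mesodermal cells a ventral, lateral and posterior fate. Mesogenin then moves them towards a presomitic state, and oscillating Hairy-related repressors time the segments. Mesp factors act in the polarity within a segment, and myogenic factors start muscle formation. The miR-430 family of microRNAs is transcribed abundantly at the onset of zygotic transcription in zebrafish and removes many messenger RNAs that the mother left in the egg.

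Each of 5 groups gave 1 library of poly(A)+ RNA, made from 15 pooled whole embryos at the shield stage, 6 h after fertilization. The wild-type embryos, of strain TU/AB/TL/TLF, were untreated. The other 4 groups were MZdicer (hu896/hu896), which lack maternal and zygotic Dicer, the enzyme that cuts microRNA precursors, and 1 of these groups was untreated. The other 3 MZdicer groups received, at the 1-cell stage, 1 nl of a 25 µM stock of a miR-430 duplex, of a miR-430 hairpin that Argonaute 2 cuts in place of Dicer (Ago2 hairpin), or of that hairpin with 3 phosphorothioate bonds (3xPS Ago2 hairpin). No MZdicer group received a control injection, so injection itself and miR-430 cannot be told apart. Strain and the loss of Dicer cannot be told apart either.

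Total counts ran from 14867084 in MZdicer to 26300080 in wild type. DICER1 was at 36.5 CPM in wild type and between 20.1 and 23.0 CPM in the 4 MZdicer libraries. A count of reads per gene cannot tell a mutant from a wild-type Dicer transcript. Markers of the tissues of a whole embryo were present in every library, and all 12 enveloping layer, 7 yolk syncytial layer and 11 ectoderm genes whose symbol matched an identifier were measured. Groups of 1 library have no replicate error, so none of the differences could be checked against replicates and p-values are not printed. Square brackets give 95% intervals that cover the counting of reads and no other error. The words called higher and called lower mean a CPM at least 2-fold apart with an exact interval of the ratio that excluded equality. In whole embryos, fewer cells of a type and less RNA per cell cannot be told apart.

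All 8 genes were lower in the MZdicer library than in wild type, and 7 of them were called lower. Across all measured genes 7.26% were called lower and 18.8% higher. Earlier results of these data were known when the 8 genes were chosen, so such shares, here and below, describe and do not test. The median log2 ratio, computed from log2(CPM + 0.5), was -2.09 over the 8 genes and 0.02 over all measured genes. The exception to the calls was her7, which was 1.86-fold lower [1.69, 2.04] and was called, of the scalings tried, with upper-quartile factors only (ratio 0.47). With those factors 1602 of all measured genes were lower and 2105 higher, in place of 1024 and 2648.

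Enveloping layer markers and maternal transcripts moved in the same comparison, and their part in the result was not tested. The shares of all measured genes called there were 7.26% lower and 18.8% higher. Of 12 enveloping layer genes 4 were called lower in MZdicer and 0 higher, with a median log2 ratio of -0.61. Their summed level was 11319 CPM in wild type, 7243 in MZdicer and 6768 to 8657 CPM in the injected libraries. The keratin genes krt4, krt8 and krt5 were the largest parts of this sum, at 3085, 2978 and 2007 CPM in wild type. In MZdicer they were at 2124, 2297 and 827 CPM. Of 15 genes in a list of oocyte genes and maternal transcripts cleared by miR-430, 8 were called higher in MZdicer and 0 lower. The median over the list was 0.99 on the log2 scale. The list was drawn up with miR-430 clearance and earlier results of these data in view, so its direction was partly set by that choice. The summed level of these 15 genes was 1199 CPM for wild type, 2411 for MZdicer and 1251 for the duplex. It was 1815 CPM for the Ago2 hairpin and 1926 for the 3xPS Ago2 hairpin. CCNA1 alone was at 51.6, 1027, 198, 626 and 746 CPM in the same order, so most of the rise in MZdicer lies in this gene. Of the 15 genes 7 were not called in MZdicer against wild type.

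With the duplex all 8 genes had a higher level than in uninjected MZdicer, and 5 were called higher, against 2.36% of all measured genes. The median log2 ratio was 1.21 over the 8 genes. With the Ago2 hairpin 3 were called higher (mespaa, mespab and myf5), against 1.06% of measured genes, and the median was 0.43. The calls of mespaa and mespab were each lost with some alternative settings, and that of myf5 rests on 4 counts in MZdicer. With the 3xPS Ago2 hairpin only myf5 was called higher, against 1.05% of measured genes, and the median was 0.39. The MZdicer library is shared by these 4 comparisons, so a low or high count there enters each of them.

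**Figure D1:**
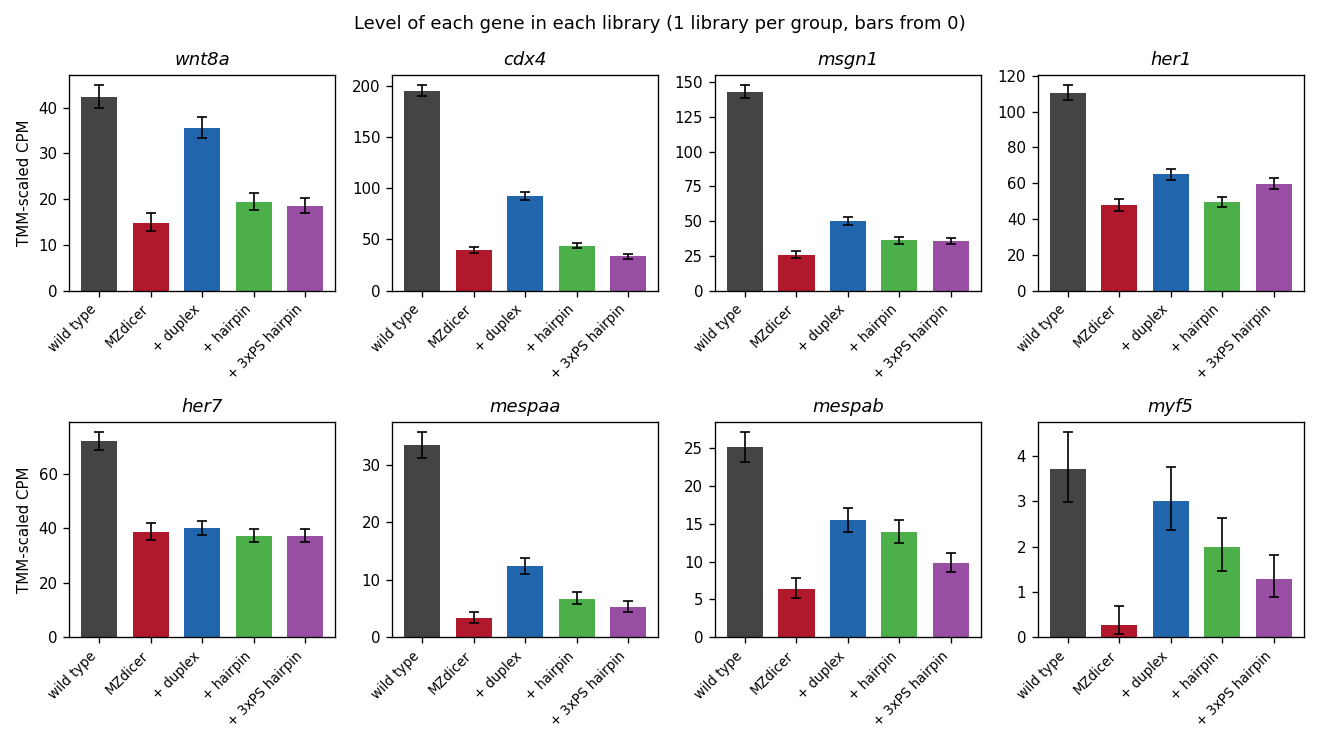
Level of each of the 8 genes in TMM-scaled CPM (y axis, from 0) in each of the 5 libraries (x axis). Bars are single libraries and error bars are 95% exact Poisson intervals; the wild-type bar is the highest in every panel, and the duplex bar is the second highest, although the 4 bars of her7 from MZdicer embryos lie level at 37.1 to 40.1 CPM.

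The ligand of the group is wnt8a, a Wnt protein of the ventrolateral margin that is needed for ventral and posterior mesoderm. Its level was 42.3 CPM for wild type, 14.8 for MZdicer, 35.6 for the duplex, 19.4 for the Ago2 hairpin and 18.5 for the 3xPS Ago2 hairpin. Wild type and duplex were thus the high libraries and the other 3 the low ones. The gene was 2.85-fold lower in MZdicer than in wild type [2.47, 3.31] and 2.40-fold higher with the duplex than in MZdicer [2.07, 2.79]. At 84.0% of wild type (ratio 0.84 [0.77, 0.92]) it was the member that the duplex library held closest to wild type. The interval of myf5 (0.81 [0.59, 1.11]) overlapped it. The hairpin libraries held 45.8% and 43.8% of the wild-type level, and they did not differ from each other beyond counting error (ratio of 3xPS to unmodified hairpin 0.96 [0.84, 1.09]).

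A further identifier in the tables, ENSDARG00000078507, also carries the symbol WNT8A. In RefSeq (assembly GRCz12tu) the coding gene next to wnt8a is wnt8-2, and how reads of such close relatives were shared between identifiers is not given in the sources used here. That identifier was at 96.6 CPM for wild type, 55.3 for MZdicer, 78.5 for the duplex, 60.3 for the Ago2 hairpin and 49.9 for the 3xPS Ago2 hairpin. It was 1.75-fold lower in MZdicer [1.61, 1.89] and had a ratio of 1.42 [1.31, 1.54] with the duplex against MZdicer, so neither passed 2-fold.

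The caudal-type homeobox gene cdx4 acts in posterior body patterning upstream of Hox genes. Its level was 195 CPM for wild type, 39.5 for MZdicer, 92.7 for the duplex, 43.8 for the Ago2 hairpin and 33.3 for the 3xPS Ago2 hairpin. It was 4.94-fold lower in MZdicer than in wild type [4.54, 5.39], and 2.35-fold higher with the duplex than in MZdicer [2.14, 2.57]. The duplex library nevertheless held 47.5% of the wild-type level and was called 2.11-fold lower than wild type [2.01, 2.21]. The hairpin libraries went apart for this gene. The Ago2 hairpin library was 1.11-fold above MZdicer [1.002, 1.23], and the 3xPS library was 1.19-fold below it [1.06, 1.32]. At 17.1% of wild type, the 3xPS library held the lowest cdx4 level of the 5.

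The mesogenin gene msgn1 encodes a bHLH factor that moves mesodermal progenitors into the presomitic state. It was at 143 CPM for wild type, 25.6 for MZdicer, 50.01 for the duplex, 36.2 for the Ago2 hairpin and 35.6 for the 3xPS Ago2 hairpin. The wild-type library stood far above the rest. MZdicer was 5.60-fold lower than wild type [5.04, 6.23]. The duplex ratio against MZdicer was 1.95 [1.74, 2.19], just under the 2-fold limit, and with upper-quartile scaling it was 2.08 and was called. Of the 8 genes msgn1 reached the smallest share of wild type with the duplex, 34.9% (ratio 0.349 [0.327, 0.372]), although the interval of mespaa (0.371 [0.325, 0.423]) overlapped it. The 2 hairpin libraries held 25.3% and 24.8% of the wild-type msgn1 level.

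**Figure D2:**
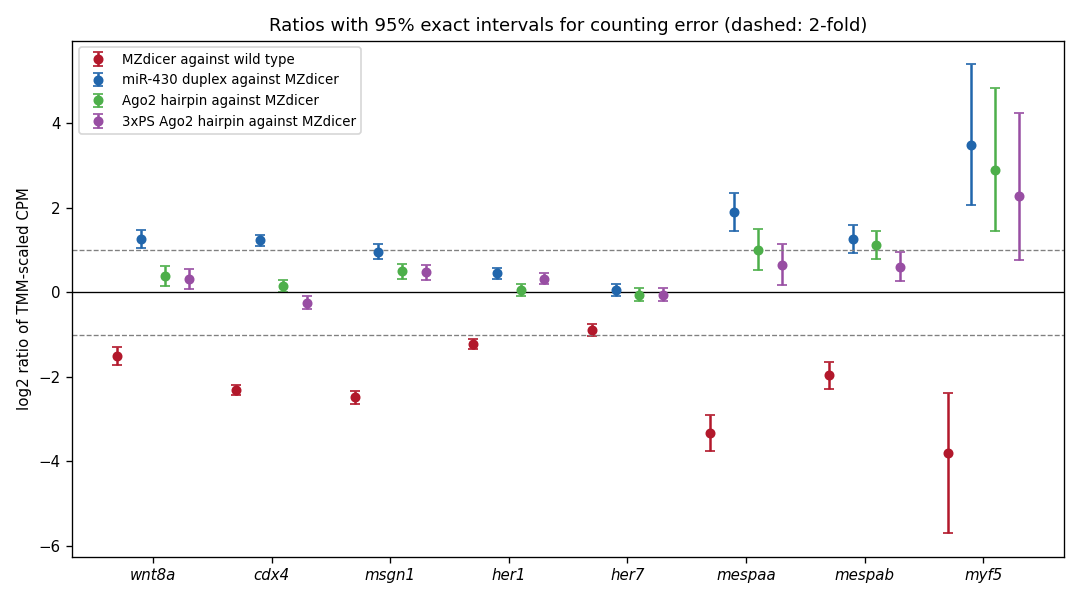
Log2 ratios of TMM-scaled CPM (y axis) for the 8 genes (x axis) in MZdicer against wild type and in each injected library against MZdicer. Points are ratios of single libraries, bars are 95% exact intervals for counting error and dashed lines mark 2-fold; every red point lies below 0, and the spread of the intervals is widest for myf5, which had 4 counts in MZdicer.

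The clock genes her1 and her7 encode Hairy-related bHLH repressors whose delayed feedback on their own genes drives the segmentation clock, and in RefSeq (assembly GRCz12tu) they are neighbouring coding genes. The her1 level was 111 CPM for wild type, 47.7 for MZdicer, 64.9 for the duplex, 49.6 for the Ago2 hairpin and 59.6 for the 3xPS Ago2 hairpin. For her7 the levels were 71.9, 38.7, 40.1, 37.3 and 37.1 CPM in the same order. For both genes the wild-type library was the highest and the other 4 lay below it.

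Against wild type, MZdicer was 2.32-fold lower for her1 [2.14, 2.52], which was called, and her1 and her7 had the smallest such differences of the 8 genes. With the duplex her1 had a ratio of 1.36 against MZdicer [1.25, 1.49] and her7 a ratio of 1.04 [0.93, 1.15]. For her7 the intervals of all 3 injected libraries against MZdicer included equality, the Ago2 hairpin at 0.96 [0.87, 1.07] and the 3xPS Ago2 hairpin at 0.96 [0.86, 1.07]. The highest upper bound of these 3 intervals was 1.15. The her1 ratio with the 3xPS Ago2 hairpin was 1.25 [1.14, 1.37], above the 1.04 [0.95, 1.14] of the Ago2 hairpin, and the 3xPS library was 1.20-fold higher than the Ago2 hairpin library [1.11, 1.30]. Of the 8 genes her1 alone had a ratio above 1 between the 3xPS and the unmodified hairpin.

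mespaa and mespab encode bHLH factors of the anterior presomitic mesoderm that act in the polarity within a segment. mespaa was at 33.4 CPM for wild type, 3.34 for MZdicer, 12.4 for the duplex, 6.70 for the Ago2 hairpin and 5.25 for the 3xPS Ago2 hairpin. Every step of that order exceeded counting error. It was 9.99-fold lower in MZdicer than in wild type [7.51, 13.6], which ranked 21 from the lowest among the 14097 measured genes by the ratio of CPM + 0.5. The duplex library was 3.71-fold above MZdicer [2.74, 5.10] and held 37.1% of wild type. The Ago2 hairpin ratio against MZdicer was 2.003 [1.45, 2.81], a call at the very limit that was lost with DESeq2 size factors (1.998) and with a pseudocount of 0.5 CPM (1.87).

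mespab was at 25.1 CPM for wild type, 6.42 for MZdicer, 15.4 for the duplex, 13.9 for the Ago2 hairpin and 9.77 for the 3xPS Ago2 hairpin. The ratio of the Ago2 hairpin to the duplex library was 0.90 [0.78, 1.04], an interval that included equality in this count column. It was 3.91-fold lower in MZdicer than in wild type [3.15, 4.90]. The duplex library was 2.40-fold above MZdicer [1.92, 3.04] and the Ago2 hairpin library 2.16-fold [1.72, 2.74]. As shares of wild type, the Ago2 hairpin library held 55.3% of mespab and 20.1% of mespaa.

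The mespab value rests on part of its reads. In the authors' last count column, which holds estimated counts that are equal to or above those of the first column, mespab had 1072.5 against 638 counts in wild type and 185.5 against 96 in MZdicer. This last column was 1.68 to 1.93 times the first for mespab over the 5 libraries. For the other 7 genes it was 1.00 to 1.02 times the first. With that column rounded, mespab was 3.37-fold lower in MZdicer than in wild type [2.88, 3.96] and 2.34-fold higher with the duplex [1.99, 2.76]. The Ago2 hairpin ratio against MZdicer became 1.91 [1.61, 2.26] and lost its call. The ratio of the Ago2 hairpin to the duplex library became 0.82 [0.73, 0.91], an interval that excluded equality.

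The last gene, myf5, encodes a myogenic bHLH factor that is among the first to be made in paraxial mesoderm. It was the gene with the fewest reads of the 8, with 94 counts for wild type, 4 for MZdicer, 76 for the duplex, 49 for the Ago2 hairpin and 32 for the 3xPS Ago2 hairpin. In CPM these were 3.70, 0.267, 3.00, 1.99 and 1.29. The MZdicer library stood alone at the bottom, and the ratios against it rest on those 4 counts. MZdicer was 13.8-fold lower than wild type [5.22, 51.8], and the duplex, Ago2 hairpin and 3xPS Ago2 hairpin libraries were 11.2-fold [4.20, 42.2], 7.43-fold [2.73, 28.4] and 4.83-fold [1.71, 18.8] above MZdicer. The duplex library did not differ from wild type beyond counting error (ratio 0.81 [0.59, 1.11]).

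Set against wild type, which leaves the uninjected MZdicer library out, all 8 genes were lower in each of the 3 injected libraries. With the duplex 3 of 8 were called lower, cdx4, msgn1 and mespaa, against 4.28% of all measured genes. With the Ago2 hairpin 5 were called lower, against 6.99%, and her7, mespab and myf5 were not. With the 3xPS Ago2 hairpin 6 were called lower, against 6.94%, and her1 and her7 were not. The median log2 ratio to wild type over the 8 genes was -0.80, -1.13 and -1.27 with the duplex, the Ago2 hairpin and the 3xPS Ago2 hairpin, and 0.03, 0.04 and 0.04 over all measured genes. These comparisons share the wild-type library.

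**Figure D3:**
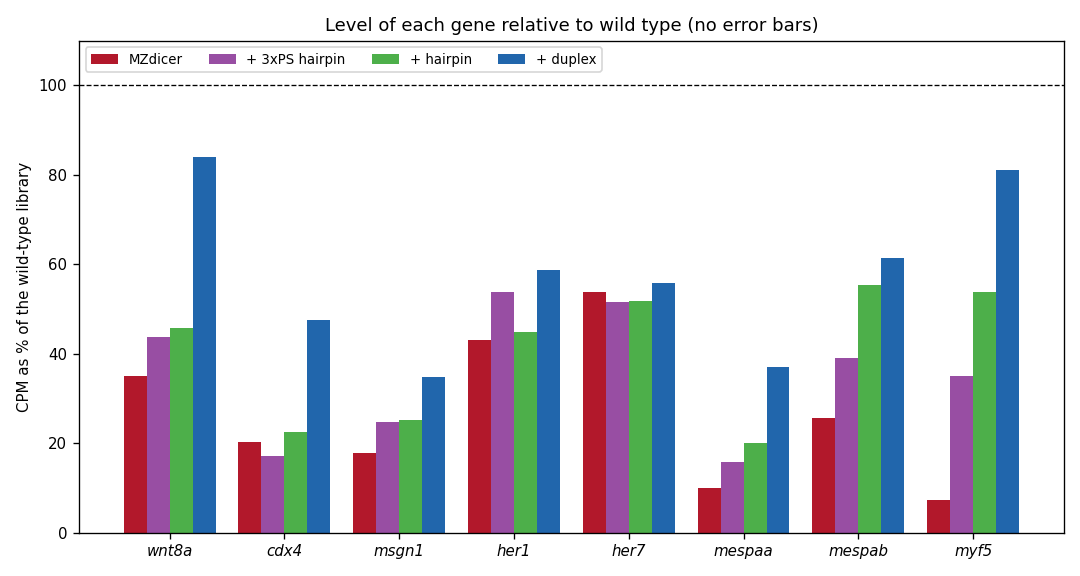
CPM of each of the 8 genes (x axis) in the 4 MZdicer libraries as a percentage of its CPM in the wild-type library (y axis, dashed line at 100%). Bars are single libraries without error bars; the duplex bar is the tallest for all 8 genes, from 34.9% for msgn1 to 84.0% for wnt8a, and the bars of her7 differ least.

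The injected forms were compared with each other at the same volume and stock concentration, as 24 pairs of libraries and genes. Against the duplex, the Ago2 hairpin library was lower for all 8 genes, with the interval excluding equality for 6, and only cdx4 was called, 2.12-fold lower [1.97, 2.28], against 1.58% of all measured genes. For the other 2, her7 and mespab, the ratios were 0.93 [0.85, 1.02] and 0.90 [0.78, 1.04]. The 3xPS Ago2 hairpin library was also lower than the duplex library for all 8 genes, with the interval excluding equality for 7. Called were cdx4 (2.78-fold [2.57, 3.01]), mespaa (2.36-fold [1.92, 2.92]) and myf5 (2.32-fold [1.52, 3.63]), against 1.17% of measured genes. The myf5 call was lost with a pseudocount of 0.5 CPM (ratio 0.51).

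Between the hairpins with and without the phosphorothioate bonds none of the 8 genes was called, where 0.383% of measured genes were called lower and 1.14% higher with the 3xPS form. The 3xPS library was lower for mespab (1.42-fold [1.20, 1.68]), cdx4 (1.31-fold [1.20, 1.44]) and mespaa (1.28-fold [1.01, 1.62]), and higher for her1. For wnt8a, msgn1, her7 and myf5 the interval included equality. The narrowest of these was her7, with a ratio of 0.996 [0.91, 1.09], and the widest myf5, with 0.65 [0.40, 1.03].

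Levels of different genes were compared per kilobase of the length given in the tables. In wild type the order was msgn1 at 132 CPM per kilobase, cdx4 at 119, her7 at 64.6, her1 at 60.9, mespaa at 37.6, mespab at 27.2, wnt8a at 24.8 and myf5 at 2.58. In MZdicer the clock genes came first, her7 at 34.8 and her1 at 26.3, ahead of cdx4 at 24.1 and msgn1 at 23.6. No interval was computed between genes, so close values, such as those of her1, cdx4 and msgn1 here, may lie within counting error. The duplex library had cdx4 at 56.6 and msgn1 at 46.0 in front again, ahead of her7 at 36.0 and her1 at 35.8. In the 3xPS library her7, her1 and msgn1 were nearly level at 33.4, 32.8 and 32.7, with cdx4 at 20.4. The gene with the lowest level per kilobase was myf5 in all 5 libraries. Within a gene, some neighbours in the order of libraries did not differ beyond counting error. These were the 2 hairpin libraries for wnt8a, msgn1 and myf5, the duplex and Ago2 hairpin libraries for mespab (in the first count column only), the Ago2 hairpin and MZdicer libraries for her1, wild type and duplex for myf5, and all 4 libraries of MZdicer embryos for her7.

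The genes that act with these 8 were taken from lists that name pathway genes by symbol. Of 3 measured T-box and paraxial mesoderm genes 2 were called lower in MZdicer, against 7.26% of all measured genes. The T-box gene tbx6, which acts in presomitic mesoderm, was at 7.47 CPM in wild type, 0.869 for uninjected MZdicer and 2.17 for the duplex. It was 8.60-fold lower in MZdicer [4.91, 16.4], on 13 counts there, and 2.497-fold higher with the duplex [1.35, 4.98]. The duplex library was still called 3.44-fold lower than wild type for tbx6 [2.54, 4.74]. Against MZdicer, its ratios were 1.31 [0.66, 2.75] with the Ago2 hairpin and 1.30 [0.65, 2.73] with the 3xPS Ago2 hairpin. The paraxial protocadherin gene pcdh8 was 2.38-fold lower in MZdicer [2.24, 2.52] and had a ratio of 1.60 with the duplex [1.502, 1.70]. The remaining gene, tbx16, a T-box gene needed for paraxial mesoderm, was at 949 CPM in wild type and 1008 in MZdicer, and between 888 and 970 CPM in the injected libraries.

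Both measured somite boundary and polarity genes other than mespaa and mespab were called lower in MZdicer and higher with the duplex. Of all measured genes 7.26% were called lower in MZdicer and 2.36% higher with the duplex. ripply1, which ends Mesp activity at the forming boundary, was at 23.4 CPM for wild type, 6.69 for MZdicer, 15.7 for the duplex, 16.4 for the Ago2 hairpin and 14.6 for the 3xPS Ago2 hairpin. It was 3.51-fold lower in MZdicer [2.83, 4.38] and called higher in all 3 injected libraries, by 2.18-fold to 2.46-fold. ALDH1A2, which makes retinoic acid in paraxial mesoderm, was 2.11-fold lower in MZdicer [1.96, 2.28] and 2.38-fold higher with the duplex [2.21, 2.56]. Of 3 measured myogenic genes 1 was called lower in MZdicer, against the same 7.26%, and the median log2 ratio of the list was 0.02. MEF2D had a ratio of 1.94 in MZdicer against wild type and cdkn1ca a ratio of 1.02. With the duplex against MZdicer their ratios were 0.83 and 0.99. The gene called lower was six4a, a homeobox gene that acts in early muscle formation, at 16.7 CPM in wild type and 1.47 in MZdicer. It was 11.4-fold lower in MZdicer [7.41, 18.3] and 6.95-fold [4.49, 11.3], 3.37-fold [2.13, 5.57] and 2.36-fold [1.46, 3.96] higher with the duplex, the Ago2 hairpin and the 3xPS Ago2 hairpin.

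Of 11 measured Wnt and Fgf signal genes 1 was called lower in MZdicer and 1 higher. With the duplex 0 were called, against 7.2% lower and 2.36% higher of all measured genes. The counts in MZdicer are near or below the 7.26% lower and 18.8% higher of all measured genes. In that comparison the median log2 ratio of the list was -0.03. The Fgf inhibitor gene SPRY4 was 2.20-fold lower [1.83, 2.65] and the Fgf-responsive ETS factor gene etv5a 2.64-fold higher [2.48, 2.82]. Of 3 measured Cdx, Hox and tail genes eve1, a homeobox gene of the ventral margin and tail, was 2.78-fold lower [2.60, 2.97] and the growth factor gene gdf11 6.12-fold higher [3.40, 11.7]. With the 3xPS Ago2 hairpin eve1 was at 48.7 CPM against 71.7 in MZdicer, a ratio of 0.68 [0.63, 0.74], and cdx4 was likewise below MZdicer there.

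Of 10 measured segmentation clock and Notch genes other than her1 and her7, 2 were called higher in MZdicer and 1 lower. These counts are near the 18.8% higher and 7.26% lower of all measured genes. The median log2 ratio was -0.01 over these 10 genes. The Delta ligand gene dlb was 5.27-fold higher [3.82, 7.37] and her5 2.20-fold higher [1.72, 2.81]. her12, another Hairy-related gene, was 2.21-fold lower [1.25, 4.103] on 16 counts in MZdicer. It was near the filter limit of 1 CPM, at 2.36 CPM in wild type, 1.07 in MZdicer and 0.363 to 1.34 in the injected libraries. Its filter mean includes the high wild-type value. With the duplex only her11 was called, 2.04-fold lower than in MZdicer [1.65, 2.52], against 7.2% of all measured genes called lower. The Notch ligand genes dlc and DLD were at 110 and 63.7 CPM in wild type and 94.1 and 61.5 in MZdicer.

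**Figure D4:**
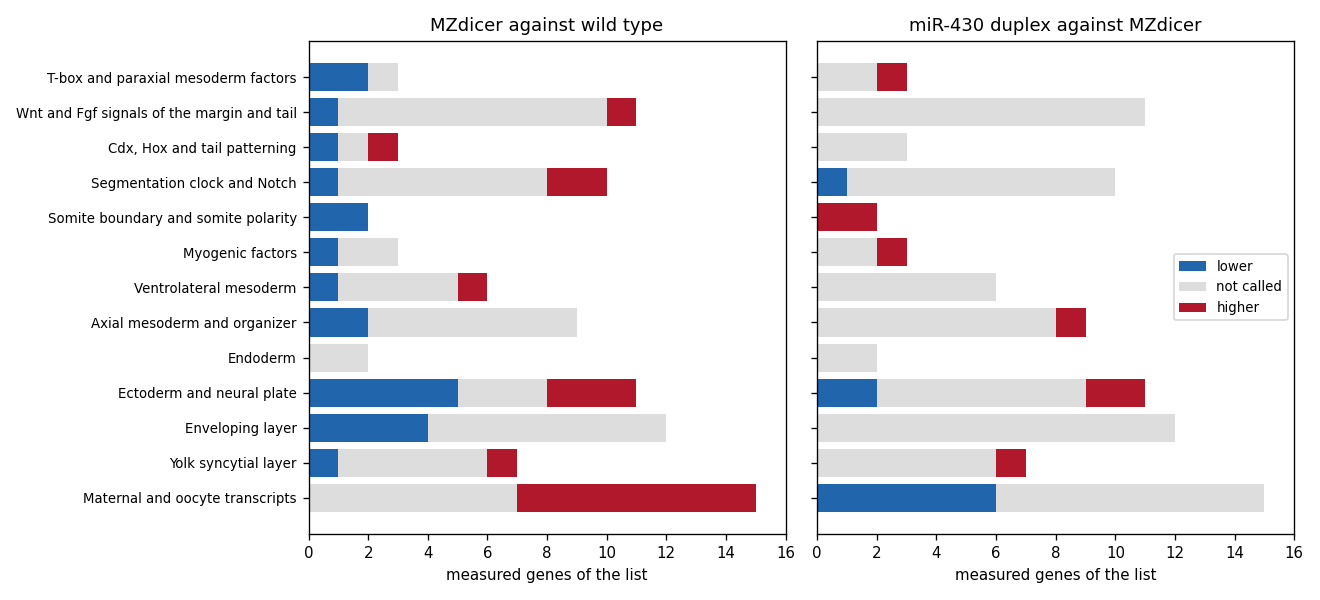
Number of measured genes (x axis) of each gene list (y axis) that were called lower, not called or called higher in MZdicer against wild type (left) and with the duplex against MZdicer (right), the 8 genes left out. Both somite boundary genes are lower on the left and higher on the right. Of 15 maternal and oocyte genes, a list chosen in part as cleared by miR-430, 8 are higher on the left and 6 are lower on the right. The shares of all measured genes were 7.26% lower and 18.8% higher on the left, and 7.2% lower and 2.36% higher on the right.

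Other mesoderm lists held calls as well, where 7.26% of all measured genes were called lower in MZdicer and 18.8% higher. Of 6 measured ventrolateral mesoderm genes GATA2 was 2.43-fold lower in MZdicer [2.27, 2.60] and LMO2 14.0-fold higher [10.2, 19.6]. LMO2 was at 1.73 CPM in wild type, 24.3 in MZdicer and 27.3 to 37.2 CPM in the injected libraries. Of 9 axial mesoderm and organizer genes 2 were called lower, the BMP antagonist gene chrd (2.38-fold [2.28, 2.49]) and the Wnt antagonist gene frzb (2.06-fold [1.82, 2.34]), with a median log2 ratio of -0.44. With the duplex 1 of the 9, FOXA2, was called, 2.002-fold higher [1.75, 2.29], against 2.36% of all measured genes called higher.

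The pattern over the 5 libraries was summarised as the median of the 8 profiles of log2(CPM + 0.5), each centred on its own mean. This median was 0.94 for wild type, -0.78 for MZdicer, 0.37 for the duplex, -0.33 for the Ago2 hairpin and -0.37 for the 3xPS Ago2 hairpin. Of the 8 genes wnt8a lay closest to it, with a root mean square difference of 0.11 on the log2 scale, and mespaa farthest, at 0.49. The 10 other genes with a symbol that lay closest had differences of 0.09 to 0.13. They were SLC35F3, cd34, ADD3, RPP40, fhdc4, ankrd6a, DIMT1, RAPGEF6, GNL3L and trpm4a. ADD3 (adducin 3) was at 586 CPM for wild type, 208 for MZdicer, 382 for the duplex, 259 for the Ago2 hairpin and 261 for the 3xPS Ago2 hairpin. DIMT1, an enzyme that methylates ribosomal RNA, was at 99.0, 34.6, 60.6, 41.8 and 40.7 CPM in the same order. None of these 10 genes belongs to the lists above.

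**Figure D5:**
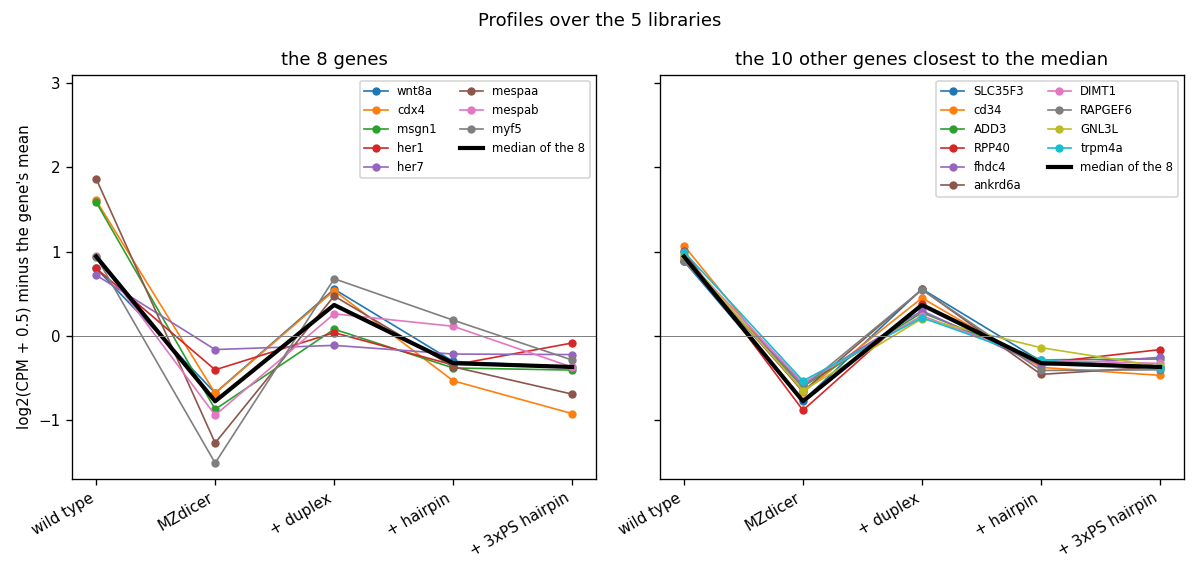
Values of log2(CPM + 0.5) minus each gene's mean (y axis) in the 5 libraries (x axis) for the 8 genes (left) and for the 10 other genes closest to their median (right). The thick black line is the median of the 8 genes and thin lines only join the points of a gene; the 8 genes spread more widely around the median, from -1.51 for myf5 to -0.16 for her7 in MZdicer, than the 10 genes that were chosen for being close to it.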

How the data were processed

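Strand-specific poly(A)+ libraries were sequenced from pooled whole embryos. The submitters' processing notes name build Zv9 (danRer7), TopHat2 2.0.8 and CASAVA 1.8.2. How reads were assigned to genes, with or without strand, and from which annotation is not given in the sources used here. Per the file headers, each deposited table holds a length, 3 count columns and 3 RPKM columns. Whole-number counts of the first column, deposited by the authors without normalization, were used unless stated. The other deposited columns (the next and the last) hold estimated counts, rounded for use as alternatives. The authors' RPKM values equal counts per kilobase of the length column and per 1000000 of the column total, and were an alternative only.

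TMM factors over the 5 libraries (0.967 to 1.02) came from edgeR 4.0.16 in R 4.3.3. Ratios of CPM carry exact conditional binomial intervals (95%, scipy 1.17.1), and the call needs at least 2-fold. The labels describe no molecular identifiers, so reads may repeat a molecule, which the intervals do not cover. With 1 library per group no test between groups was made. Depth ran from 14867084 to 26300080 counts.

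Symbols came from a table that names 18804 of the 26158 identifiers. List genes whose symbol it lacks were not analysed here. Earlier results of these data were known when the 8 genes, the 13 lists and the naming rule were chosen. The rule takes all 8 genes, up to 4 called genes per list with the interval bound farthest from equality, the 10 genes closest to the median profile and DICER1. tbx16, dlc, DLD and the second WNT8A identifier were chosen after their values were seen. MEF2D and cdkn1ca, the other measured genes of the myogenic list, were also named outside the rule. Alternatives were total-count, DESeq2 1.42.0 and upper-quartile scaling, other filters, thresholds and pseudocounts, the other count columns and RPKM.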

Additional observations from a re-analysis of the deposited data

How the results depend on the processing

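All 8 genes stayed below wild type in MZdicer, and above MZdicer with the duplex, with the other scalings, the other count columns and RPKM. RPKM repeats the total-count scaling. The other alternatives could not change a direction. Filters and the 1.5-fold threshold leave the ratio of a gene as it is, and a pseudocount cannot reverse it. The filters were not applied to the 8 genes, and myf5, at no more than 3.70 CPM in any library, would not pass a mean of 5. Upper-quartile factors moved the median log2 ratio of all genes in MZdicer against wild type from 0.02 to -0.17. No ratio of the 8 genes that was called changed its direction. Of 800 recomputed ratios 769 kept their direction and their side of the 2-fold limit, 26 gained a call and 5 lost one. Of these changes 17 came from the 1.5-fold threshold, which accepts smaller ratios. The 800 include 80 ratios for each filter setting, which could not change. Counts of called genes among the 8 moved by more than 1.5 times in 6 cases. With the 1.5-fold threshold 3 were higher with the 3xPS Ago2 hairpin than in MZdicer. Against wild type 6 were lower with the duplex and 8 with the Ago2 hairpin. Against the duplex 4 were lower with the Ago2 hairpin and 5 with the 3xPS Ago2 hairpin. In the same order and direction 480, 1697, 2297, 812 and 618 of the 14097 measured genes were called at 1.5-fold, in place of 148, 604, 986, 223 and 165. With upper-quartile factors 8 were lower with the Ago2 hairpin than in wild type, as were 1443 of all measured genes. Over all measured genes, calls lower in MZdicer than in wild type numbered 1024, and 489 with a mean CPM of at least 5, 1617 with no filter, 1602 with upper-quartile factors and 2444 at 1.5-fold. Calls higher with the duplex than in MZdicer numbered 333, and 126 with a mean CPM of at least 5 and 937 at 1.5-fold. No paired analysis was possible because each group has 1 library. Depth limits myf5 most, whose MZdicer level rests on 4 counts.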

Other observations

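Beyond the mesoderm, the lists of other embryonic tissues split in several ways. Of 11 measured ectoderm and neural plate genes 5 were called lower in MZdicer than in wild type and 3 higher. Across all measured genes these shares were 7.26% and 18.8%. OTX2, a homeobox gene of the anterior neural plate, was at 6.96 CPM for wild type, 0.736 for MZdicer and 6.197 for the duplex. With the Ago2 hairpin and the 3xPS Ago2 hairpin OTX2 was at 2.07 and 1.49 CPM. It was 9.47-fold lower in MZdicer than in wild type [5.16, 19.3], on 11 counts in MZdicer. TP63, an epidermal transcription factor gene, was 6.33-fold higher in MZdicer [4.795, 8.46], and the duplex library was 4.505-fold below MZdicer [3.53, 5.80]. In the enveloping layer, the keratin gene krt17 (3.43-fold [3.16, 3.72]) and the cell adhesion gene epcam (3.03-fold [2.89, 3.18]) were lower in MZdicer, and 0 of the 12 genes were called with the duplex. Of 7 yolk syncytial layer genes mxtx2, a homeobox gene, was 5.27-fold higher in MZdicer [4.01, 7.002] and the apolipoprotein gene apoa1a 4.39-fold lower [3.905, 4.96]. Neither of the 2 measured endoderm genes was called in MZdicer or with the duplex. Of the 15 maternal and oocyte genes 6 were called lower with the duplex than in MZdicer, against 7.2% of all measured genes. That list was chosen in part as transcripts that miR-430 clears. The Balbiani body gene buc was at 7.36 CPM for wild type, 169 for MZdicer, 6.00 for the duplex, 25.0 for the Ago2 hairpin and 27.0 for the 3xPS Ago2 hairpin.

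Several tail and somite genes fell under the mean of 1 CPM and were not counted, and some are named here after their values were seen. hoxb1b, a Hox gene of the early posterior embryo, had 31 counts for wild type, 1 for MZdicer, 26 for the duplex, 1 for the Ago2 hairpin and 4 for the 3xPS Ago2 hairpin. mespba, a paralog of mespaa, had 34, 8, 28, 14 and 17 counts in that order. MYOD1, a myogenic factor gene, had 36, 4, 9, 9 and 6 counts, so that the duplex library stayed near the hairpin libraries. Not all genes under that mean stayed below wild type after injection. TCF15, of the T-box and paraxial mesoderm list, had 11, 4, 26, 33 and 23 counts in the same order. It was called higher than wild type in each injected library. hoxb1a, another Hox gene, had 9, 4, 23, 8 and 6 counts and was called higher than wild type with the duplex only.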
